A study of Arabidopsis thaliana with 14 samples.

Results

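The cytoplasmic extract of wild-type Arabidopsis thaliana flower buds was compared with RNA from whole buds, to see which transcripts the extract held more or less of. The members of the comparison were the 2 cytoplasm and 3 total libraries of wild-type Columbia (wt Col), 5 of the 14 libraries of the series. These libraries were picked by their labels, with earlier results of these data known. All groups came from inflorescences with immature buds of stages 1 to 12, from plants kept at 22 °C under 16 hours of light a day. Poly(A)+ RNA was selected in every library, and the fractions were made with a 100 µm cell strainer. The same contrast in aly1-2, a mutant of the mRNA export adaptor gene ALY1, used 2 cytoplasm and 3 total libraries, and 2 wild-type nuclear libraries served for side by side values. The labels do not say whether replicates came from separate plants, so p-values measure the spread between these libraries, which may be technical.

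A messenger RNA is made and spliced in the nucleus and passes through the nuclear pore before ribosomes translate it. In the cytoplasm the transcripts of secreted and membrane proteins are translated on the surface of the endoplasmic reticulum, while most others are translated on free ribosomes. The cytoplasm also contains the mature ribosomal RNA (rRNA), the transfer RNAs, the plastids and the mitochondria, which have transcripts of their own. Total bud RNA holds the nuclear and the cytoplasmic pools together.

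The 5 wild-type libraries held similar numbers of gene counts, from 8763029 to 9720598 in total RNA and 9671571 and 9333426 in the cytoplasm. Their composition differed. Genes of the nuclear genome other than rRNA genes took 88.1%, 88.5% and 86.8% of the counts in total RNA and only 23.8% and 34.6% in the cytoplasm. This left 7721729 to 8472384 such counts per total library and 2299945 and 3227283 per cytoplasm library, so the cytoplasm had the lower depth for messenger RNA. All levels below are counts per 1000000 nuclear-gene counts (CPM), with the 4 annotated rRNA genes of the nuclear genome and all organelle genes left out of the scaling. A fold change therefore says how a transcript stands relative to the nuclear messenger RNA of the same extract, and not how many molecules a cell holds. In such bulk samples fewer cells of a type and less RNA per cell cannot be told apart.

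**Figure D1:**
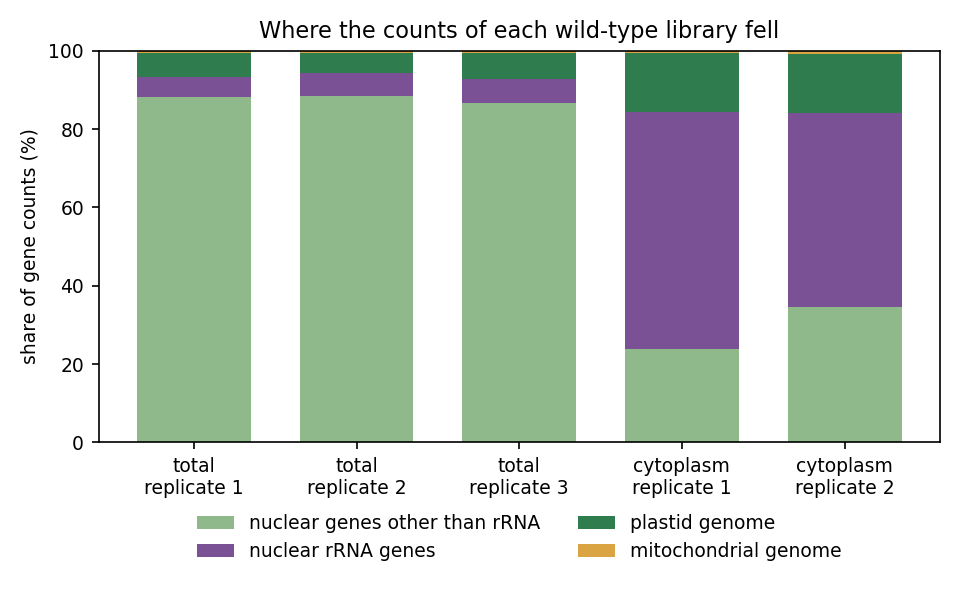
Share of all gene counts, in percent, taken by nuclear genes other than rRNA, nuclear rRNA genes, plastid genes and mitochondrial genes in each of the 5 wild-type libraries, 1 bar per library. Nuclear rRNA genes filled 5.14% to 5.92% of the 3 total libraries and 60.5% and 49.4% of the 2 cytoplasm libraries.

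Nuclear rRNA genes had the largest gain in share of counts in the cytoplasm libraries. The nuclear rRNA genes took 5.14%, 5.74% and 5.92% of the counts in the total libraries and 60.5% and 49.4% in the cytoplasm libraries. The groups did not overlap, with means of 5.597% ± 0.408 (SD, n = 3) and 55.0% ± 7.82 (SD, n = 2), a ratio of 9.82. The exact two-sided permutation p was 0.2, the smallest that 2 against 3 libraries allow. In the wild-type nuclear libraries the share was 4.61% and 5.49%. Poly(A)+ selection is meant to remove rRNA, so these are the reads left after it. They do not measure how much rRNA an extract held. Whether the selection worked alike in all groups was not tested.

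Nearly all of these counts lay in 2 annotated copies of the 18S rRNA, the RNA of the small ribosomal subunit. AT3G41768 (chromosome 3, 14197677 to 14199484) held 3.22%, 3.57% and 3.68% of all counts in total RNA and 35.6% and 29.4% in the cytoplasm. AT2G01010 (chromosome 2, 3706 to 5513) held 1.82%, 2.03% and 2.09% against 24.8% and 19.8%. Relative to nuclear messenger RNA the difference was 5.08 ± 0.50 (SE) and 5.36 ± 0.47 on the log2 scale. AT2G01020, an rRNA gene of 164 nt in the repeat of AT2G01010, rose from 0.0924%, 0.136% and 0.144% of counts to 0.152% and 0.221%. AT3G41979 had 0 counts in all 5 libraries. The copies of the 18S gene share nearly all of their sequence, so the split between them is uncertain and their sum is the firmer value.

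Ribosomal sequence also entered the count of nuclear protein-coding genes. AT2G01021, annotated as a protein-coding gene of 102 nt on the plus strand of chromosome 2 (6571 to 6672), lies within the rRNA gene repeat. Every 25-base word of it occurs in rRNA gene sequence of the reference, and an identical copy stands at 14200542 to 14200643 of chromosome 3. Its reference sequence (RefSeq, TAIR10.1) is shown because this single locus took a large share of the cytoplasmic counts that would otherwise be read as messenger RNA.
AT2G01021: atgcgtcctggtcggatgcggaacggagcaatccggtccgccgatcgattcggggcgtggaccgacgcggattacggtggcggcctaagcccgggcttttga
It held 0.620%, 0.623% and 0.732% of nuclear-gene counts in total RNA and 13.6% and 10.1% in the cytoplasm. Its level rose from 5780, 5968 and 6836 CPM to 141400 and 116100 CPM, a log2 fold change of 4.38 ± 0.30 with an adjusted p of 8.56e-05 by edgeR's quasi-likelihood test. Leaving it out of the scaling, together with a stretch of mitochondrial DNA inserted in chromosome 2, gave 4308 higher and 4567 lower genes, against 4330 and 4545 with it. That setting was chosen after seeing the data.

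Plastid genes had the second largest gain in share of counts. Plastid genes took 6.17%, 5.27% and 6.77% of all counts in total RNA and 15.2% and 15.3% in the cytoplasm. Per 100 nuclear-gene counts this was 6.997, 5.96 and 7.81 in total RNA against 63.8 and 44.2 in the cytoplasm, with means of 6.92 ± 0.927 (SD, n = 3) and 54.0 ± 13.8 (SD, n = 2). The groups did not overlap, and the exact permutation p was again 0.2. In the wild-type nuclear libraries, which share the total libraries as their control, the same measure was 9.96 and 11.3.

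Few plastid loci carried this difference. ATCG00950, ATCG01180, ATCG00920 and ATCG01210, which the files and the reference used here name by identifier only, held 71.9%, 64.3% and 70.0% of plastid counts in total RNA and 90.9% and 83.8% in the cytoplasm. ATCG00920 rose from 4506, 4455 and 4888 CPM to 137800 and 82420 CPM, and ATCG01210 had almost the same values. ATCG00950 rose from 18950, 13890 and 20630 CPM to 164300 and 131100 CPM, again with near-identical values at ATCG01180. Each pair shares its reads, so the values of a pair are not independent.

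The rest of the plastid genome was also enriched, by less. Plastid counts outside those 4 loci came to 1.97, 2.13 and 2.34 per 100 nuclear-gene counts in total RNA and 5.79 and 7.17 in the cytoplasm. Of 133 plastid loci in the files 118 were tested, of which 68 were higher and 19 lower at an adjusted p under 0.05, with a median log2 fold change of 1.44. Over all 20807 genes tested, 20.8% were higher and 21.8% lower, with a median of -0.02. ATCG00640 rose from 5.43, 4.97 and 6.87 CPM to 625 and 914 CPM (log2 fold change 7.06 ± 0.25), and ATCG00620 from 33.4, 28.7 and 39.6 CPM to 1835 and 2748 CPM (6.08 ± 0.25). ATCG00430 went the other way, from 886, 1043 and 1256 CPM to 282 and 291 CPM (-1.89 ± 0.20), as did ATCG00470 at -0.93 ± 0.22. No cytoplasm value of these 4 loci overlapped the total values.

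Mitochondrial counts showed a split between a pair of loci and the rest. Mitochondrial genes took 0.580%, 0.501% and 0.563% of all counts in total RNA and 0.556% and 0.704% in the cytoplasm, so the groups overlapped (exact permutation p = 0.6). Per 100 nuclear-gene counts they rose from 0.658, 0.566 and 0.648 to 2.34 and 2.04, without overlap. ATMG00020 and ATMG01390 held 82.5% to 84.9% of these counts in total RNA and 97.5% and 96.9% in the cytoplasm. ATMG00020 went from 2931, 2680 and 2915 CPM to 13550 and 11900 CPM. All other mitochondrial loci together fell from 0.0998, 0.0943 and 0.114 per 100 nuclear-gene counts to 0.0583 and 0.0634. Of 152 loci in the files 65 were tested, 7 were higher and 29 lower, with a median log2 fold change of -1.33. ATMG00980 fell from 141, 149 and 168 CPM to 14.04 and 21.1 CPM (-3.11 ± 0.22), and ATMG00090 from 137, 106 and 162 CPM to 17.7 and 36.05 CPM (-2.31 ± 0.31).

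Among all 20807 genes tested, 4330 were higher in the cytoplasm (20.8%) and 4545 lower (21.8%), together 42.7%. These shares are the background for the counts in lists of genes below. A difference of over 1 on the log2 scale was passed by 2782 higher genes (13.4%) and 3462 lower genes (16.6%), and one of over 3 by 352 and 464. All cytoplasm values lay above all total values for 6294 genes (30.2%) and below them for 7111 (34.2%). The common biological coefficient of variation was 0.199. The number of calls depended on the total libraries, since each of them left out in turn gave 5386, 5865 and 5733 called genes (without total replicate 1, 2 and 3) in place of 8875. Of the tested genes 8461 had counts that were not whole, a sign of reads shared between genes. A separate fit without such genes tested 12392, with 2295 higher and 2423 lower, of which 2284 and 2355 were among the calls above.

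The 10 protein-coding genes with the highest fold change among those with a mean of at least 32 CPM included AT2G01021, described above, and a pair of genes annotated with RNA processing. The rule took genes called at an adjusted p under 0.05 whose groups did not overlap, so neither is a finding for them. AT5G66840 (chromosome 5, 26692702 to 26695384), which encodes a protein with a SAP domain, a DNA- and RNA-binding fold, was at 2.77, 4.41 and 2.77 CPM in total RNA and at 96.9 and 124.9 CPM in the cytoplasm, a 33.3-fold difference (log2 5.06 ± 0.25, adjusted p = 2.37e-05). AT5G43620, annotated as a pre-mRNA cleavage complex II protein, rose from 19.7, 14.5 and 23.59 CPM to 431 and 576 CPM (4.71 ± 0.24). AT1G66500 of the same family rose from 46.8, 43.9 and 49.3 CPM to 641 and 903 CPM (4.05 ± 0.19). Genes of this family take part in cutting the 3′ end of transcripts before the poly(A) tail is added. Of the 25-base words of AT5G43620 and AT1G66500, 28.3% and 27.3% also occur elsewhere in the nuclear genome, so reads may be shared between them and their relatives.

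The other genes at the top had mixed annotations. AT2G27402, annotated as a plastid transcriptionally active protein, went from 11.7, 7.23 and 10.1 CPM to 324 and 207 CPM. MYB87, a MYB transcription factor gene, went from 6.64, 5.99 and 9.86 CPM to 102 and 119.6 CPM, and emb2170 from 13.6, 14.8 and 16.2 CPM to 173 and 333 CPM. In each the lowest cytoplasm value was several times the highest total value. AT2G23690, annotated as an HTH-type transcriptional regulator, rose by 3.68 ± 0.22 on the log2 scale. AT1G17970, of the RING/U-box family, rose by 3.92 ± 0.27 and AT3G09730 by 3.73 ± 0.39, but both overlap a gene on the opposite strand (PAPS1, a poly(A) polymerase, and AT3G09735). The sources used here do not state how strand entered the counting, so reads of such pairs cannot be told apart. Of the genes described further on, AMS, LAP5, GRP16, TIP5;1, PSAN, HSP101, COR15B, TCH2, TCH3, ELF3, TUA1, SYP111, AT5G02530 and AT5G59950 also overlap a gene on the opposite strand.

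Several of these transcripts were also high in the nuclear extract. Total RNA holds both pools, so a level above it in both extracts does not by itself place a transcript in the cytoplasm. The part that the preparation of the extracts had in this was not tested. Against the same total libraries, the nuclear libraries had a log2 fold change of 1.64 for AT1G17970, 1.48 for MYB87, 1.36 for AT3G09730 and 1.11 for emb2170, all with an adjusted p under 0.05 (0.00709, 0.0161, 0.0262 and 0.0161). AT5G43620 stood at -0.08, AT1G66500 at 0.27 and AT5G66840 at 0.66 in that contrast, with adjusted p-values of 0.879, 0.368 and 0.421.

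The 10 lowest protein-coding genes included CDC20.1 and CDC20.2, genes of a family whose product activates the anaphase-promoting complex in mitosis. CDC20.2 (chromosome 4, 16041006 to 16043549) fell from 60.6, 55.3 and 69.7 CPM to 7.25 and 3.93 CPM (log2 -3.5 ± 0.29, adjusted p = 0.000159), and its neighbour CDC20.1 from 89.5, 86.3 and 86.5 CPM to 3.62 and 12.9 CPM. In neither did the groups overlap. The 2 genes are near copies, with 36.6% and 32.9% of their 25-base words elsewhere in the nuclear genome, so each is less certain than their sum.

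The others among the lowest were of mixed annotation, several of them enzymes or receptors of the cell wall and membranes. PME5, a pectin methylesterase of the cell wall, fell from 302, 259 and 286 CPM to 20.8 and 33.2 CPM (-3.37 ± 0.23), a 10.3-fold lower level. KCS2, a 3-ketoacyl-CoA synthase that elongates fatty acids, fell from 98.7, 96.0 and 131 CPM to 12.2 and 7.495 CPM (-3.48 ± 0.28). AT1G02190, of the fatty acid hydroxylase family, fell from 255, 289.8 and 324 CPM to 31.7 and 27.1 CPM (-3.30 ± 0.20). The receptor-like kinase gene IMK2, named for the inflorescence meristem, fell from 91.1, 65.3 and 89.3 CPM to 8.61 and 8.57 CPM (-3.25 ± 0.25). AT5G24620 (thaumatin family), AT1G66180 (aspartyl protease family), EMB2820 (cytidine deaminase family) and AT5G11560 fell by between 3.26 and 3.53 on the log2 scale. Of these 10 genes only KCS2, at 0.85, and CDC20.1, at -0.85, had an adjusted p under 0.05 in the nuclear libraries against the same total libraries (0.0486 and 0.0411). AT5G24620 and KCS2 overlap genes on the other strand. The plot of the highest and lowest protein-coding genes shows the separation of the groups.

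**Figure D2:**
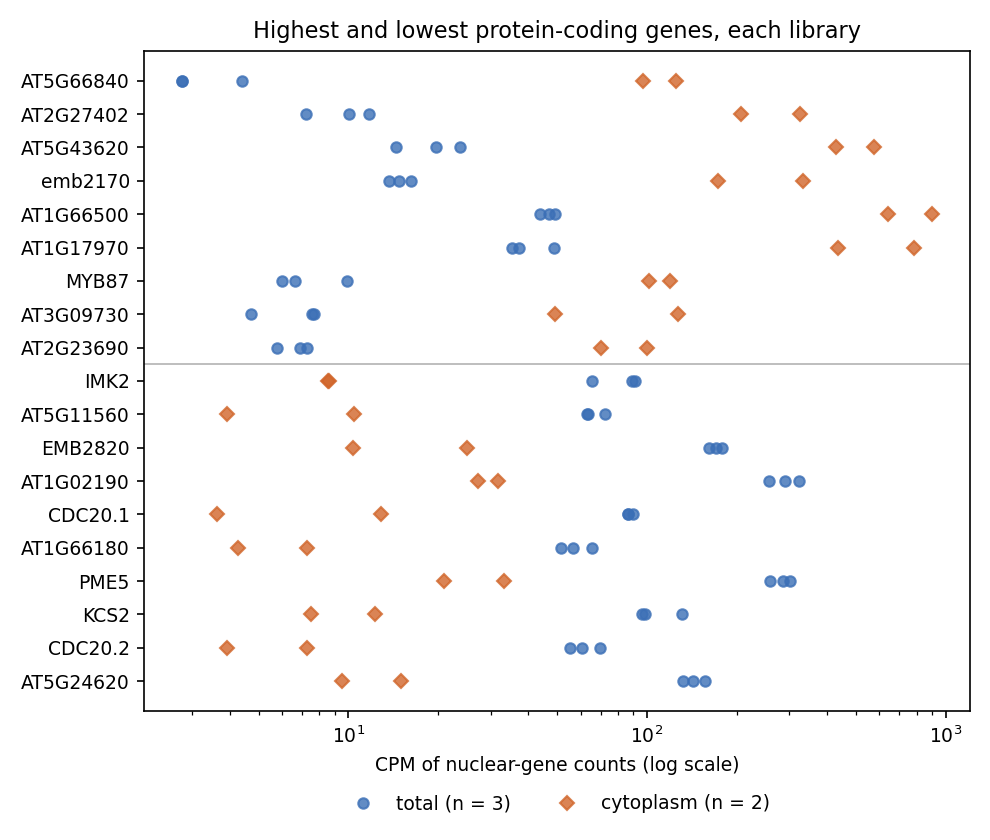
Level in CPM of nuclear-gene counts (log axis) of the 19 named highest and lowest protein-coding genes other than AT2G01021, with circles for the 3 total and diamonds for the 2 cytoplasm libraries. The cytoplasm points of CDC20.2 sit at 3.93 and 7.25 CPM and its total points at 55.3 to 69.7 CPM, and no gene drawn has overlapping groups, since the rule asked for that.

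The pollen coat genes, glycine-rich oleosin-type proteins that the tapetum makes for the surface of pollen, were lower in 6 of 6 tested, with a median log2 fold change of -2.71. GRP17 fell from 7189, 5913 and 6063 CPM to 704 and 912 CPM (-2.98 ± 0.23, adjusted p = 0.000125). GRP16 fell from 75.1, 59.9 and 60.6 CPM to 8.15 and 5.71 CPM, and GRP19 from 333, 276 and 244 CPM to 56.6 and 58.9 CPM. No cytoplasm value reached a total value in any of these 3 genes.

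The list of tapetum regulators and pollen wall synthesis genes split. Of 16 tested, 8 were lower and 3 higher, with a median of -1.46. ACOS5, which activates fatty acids for sporopollenin, fell from 24.7, 18.19 and 18.6 CPM to 4.98 and 4.64 CPM. LAP6, a polyketide synthase of the same pathway, fell from 70.3, 58.0 and 54.6 CPM to 16.8 and 26.1 CPM. CALS5, a callose synthase for the pollen wall, fell by 2.85 ± 0.49. SPL, needed for the first anther cell divisions, rose from 3.02, 5.199 and 4.54 CPM to 37.1 and 13.9 CPM. DYT1, a transcription factor of the young tapetum, was at 0, 0.226 and 0.221 CPM in total RNA and at 6.79 and 5.35 CPM in the cytoplasm, and with 4 reads over the 3 total libraries it passed the filter through the cytoplasm alone. AMS, another tapetum regulator, was lower (-0.80). The summed level of the 4 matched tapetum markers (AMS, ACOS5, CYP703A2 and LAP5) was 71.1 to 87.7 CPM in total RNA and 33.1 and 33.5 CPM in the cytoplasm, with 4 of 4 lower and none at 0. The part that the makeup of cells in the extract had in this was not tested.

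Of 11 late pollen genes tested, 3 were higher and 2 lower (median 0.48), a share of calls near the 42.7% over all genes. The call of TIP5;1, among the 3, was lost without cytoplasm replicate 1 or any one of the total libraries. PPME1, a pollen pectin methylesterase, fell from 174, 169 and 218 CPM to 99.2 and 73.5 CPM, a call lost with all 14 libraries in 1 fit (adjusted p = 0.111 by edgeR's quasi-likelihood test), while the pollen transcription factor gene MYB101 rose from 8.21, 6.56 and 12.4 CPM to 49.4 and 28.2 CPM. The summed level of the 5 mature pollen markers was 1228 to 1794 CPM in total RNA and 851 and 1064 CPM in the cytoplasm. Of 13 meiosis genes, DMC1, the recombinase of meiotic strand exchange, rose from 7.72, 9.38 and 10.5 CPM to 38.5 and 22.5 CPM, and ZYP1b of the synaptonemal complex was lower (-2.24 ± 0.77, adjusted p = 0.0437). The ZYP1b call was lost without any one of the 5 libraries.

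Transcripts of secreted and membrane proteins were low in several lists. Of 7 lipid transfer protein genes, whose products are secreted to the cell surface, 4 were lower and none higher (median -0.90). All 7 had shared reads, so each gene is less certain. LTP5 fell from 392, 475 and 450.3 CPM to 95.6 and 116.0 CPM (-2.05 ± 0.18). Of 44 genes for cell wall proteins, 16 were lower and 11 higher (median -0.49). FLA8, a fasciclin-like arabinogalactan protein, fell from 113, 116 and 118 CPM to 13.6 and 15.4 CPM (-2.99 ± 0.18, adjusted p = 5.71e-05), and AGP9 from 286, 318 and 302 CPM to 61.6 and 48.5 CPM. PMEI1, an inhibitor of pectin methylesterases, rose from 19.3, 16.6 and 27.8 CPM to 84.7 and 109 CPM, and EXPA4, an expansin that loosens the wall, from 21.0, 16.4 and 25.4 CPM to 88.3 and 56.8 CPM. The list held genes with clearly separated groups in both directions.

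Of 15 chaperone and translocation genes of the endoplasmic reticulum 8 were lower (53.3%) and 1 higher (6.67%), with a median of -0.72. Shared reads entered 11 of the 15. BIP1, the luminal HSP70 chaperone, fell from 315, 364 and 299 CPM to 132 and 122 CPM, and PDIL1-1, a protein disulfide isomerase, from 192, 181 and 179.5 CPM to 113 and 103 CPM. Of 17 genes for aquaporins, the water channels, 7 were lower (41.2%) and 2 higher (11.8%), with a median of -0.61. GAMMA-TIP of the vacuole membrane fell from 326, 338 and 307 CPM to 127.7 and 126.3 CPM, and PIP2B of the plasma membrane rose from 33.1, 35.7 and 29.9 CPM to 75.6 and 64.6 CPM. With genes that had shared reads left out, only 3 aquaporin genes remained, with a median of 0.365, on the other side of 0.

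Of 23 tubulin and actin genes 16 were lower and 2 higher (median -0.82). TUA4 fell from 467, 526 and 517 CPM to 139 and 158 CPM (-1.76 ± 0.16), TUB2 from 487, 493 and 493 CPM to 179 and 166 CPM, and TUA1 rose from 57.4, 48.1 and 57.5 CPM to 102 and 103 CPM. These genes are near copies of one another, and the 6 tested without shared reads had a median of 0.04. Of 43 core histone genes tested, 20 were higher and 4 lower (median 0.45), and 25 had shared reads. Less the median of genes of similar length, the list median was 0.15. In the nuclear libraries against the same total libraries the list median was 0.38. AT3G53730, a histone gene, rose from 83.5, 75.7 and 88.0 CPM to 267 and 307 CPM (1.8 ± 0.15).

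Of 31 cell cycle genes 10 were higher (32.3%) and 5 lower (16.1%), with a median of 0.70. The B2 cyclins, partners of the mitotic kinase, were higher: CYCB2;2 rose from 11.6, 10.4 and 12.1 CPM to 54.8 and 82.1 CPM (2.60 ± 0.22), and CYCB2;3 from 12.5, 11.5 and 10.4 CPM to 51.6 and 48.2 CPM. SYP111, the syntaxin KNOLLE that fuses vesicles at the cell plate, rose from 41.0, 35.1 and 42.4 CPM to 193 and 147 CPM. The CDC20 genes described above are members of this list and were its lowest.

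The machinery of translation split by kind. Of 183 cytosolic ribosomal protein genes tested, 54 were higher and 23 lower (median 0.20), shares of 29.5% and 12.6%. AT5G02610 (L29 family) rose from 70.5, 74.1 and 63.2 CPM to 163 and 172 CPM, and AT3G04840 (S3Ae) fell from 489.9, 563 and 473 CPM to 217 and 184 CPM. Translation factor genes had 15 higher and 17 lower of 47 (median -0.15). LOS1, an elongation factor of the EF2 type, fell from 699, 758 and 629 CPM to 262 and 244 CPM, EIF3A from 387, 368 and 373 CPM to 163 and 169 CPM, and EIF3G1 rose from 85.3, 84.7 and 76.0 CPM to 159.9 and 170.2 CPM. The translation factor median was 0.345 over the 20 genes tested without shared reads.

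Nuclear genes for organelle proteins were higher more often than lower. Of 55 organelle ribosomal protein genes 23 were higher and 4 lower (median 0.42), and of 44 genes for mitochondrial respiration 14 were higher and 3 lower (median 0.33). Of 46 nuclear photosynthesis genes 16 were higher and 4 lower (median 0.31). PSAN, a photosystem I subunit, rose from 114, 133 and 118 CPM to 284 and 323 CPM (1.32 ± 0.15), and LHCB5, a light-harvesting protein, from 444, 487 and 403 CPM to 1032 and 1127 CPM. RBCS1A, the Rubisco small subunit, fell from 4511, 4981 and 4791 CPM to 2906 and 2957 CPM. Transcripts on these lists are short, and the median of each was nearer 0 once the median of genes of similar length was subtracted, at 0.16 for organelle ribosomal proteins, 0.08 for both other lists and -0.06 for cytosolic ribosomal proteins. Proteasome subunits gave 7 higher and 7 lower of 37 (18.9% each, median 0.04), both below the shares over all genes.

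In lists of nuclear RNA biology more genes were lower than higher. Of 26 SR proteins and other splicing regulators 15 were lower and 1 higher (median -0.83). Among the 15, GRP2 (AT4G38680), entered by its symbol and is annotated as glycine rich protein 2, not as a splicing regulator. SR45 fell from 291, 361 and 358 CPM to 36.7 and 82.1 CPM (-2.49 ± 0.32), and SR34b from 33.1, 40.7 and 33.4 CPM to 5.44 and 4.64 CPM. Of 19 genes of RNA-directed DNA methylation, a pathway in which small RNAs guide DNA methylation, 7 were lower and 3 higher (median -0.87). AGO9, an Argonaute protein of ovules, fell from 80.5, 87.2 and 74.4 CPM to 13.1 and 10.7 CPM (-2.77 ± 0.21), and NRPD1B, the large subunit of RNA polymerase V, from 23.2, 19.1 and 19.5 CPM to 2.27 and 3.21 CPM. Transcripts of this list are long, with a median of 3123 nt, and less the median of genes of similar length its median was -0.25.

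Of 19 mRNA export genes 8 were lower (42.1%) and 4 higher (21.1%), with a median of -0.16. The share higher was near the 20.8% over all genes. NUP1, a protein of the nuclear pore basket, fell from 53.1, 57.3 and 48.4 CPM to 12.2 and 13.2 CPM (-2.05 ± 0.21), SAC3B of the TREX-2 complex by 2.38 ± 0.32, and AT5G02530, the export adaptor ALY2, from 105.7, 111 and 108 CPM to 48.9 and 57.8 CPM. MAGO of the exon junction complex rose from 102, 113 and 101 CPM to 167 and 217 CPM. ALY1 itself (AT5G59950) was at 113.5, 120.4 and 128.4 CPM in total RNA and at 112.8 and 118.5 CPM in the cytoplasm, a log2 difference of -0.06 ± 0.15 (adjusted p = 0.760) with overlapping groups.

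Stress lists diverged, and one rested on a single library. Of 13 heat shock genes 1 was lower and none higher, with a median of -1.66. Their summed level was 423, 3948 and 897 CPM in total RNA and 352 and 752 CPM in the cytoplasm, so total replicate 2 stood far above the other 4 libraries. HSP101, a disaggregating chaperone, was at 55.0, 828 and 161 CPM against 42.6 and 62.8 CPM (-2.72 ± 1.00, adjusted p = 0.0554). HSP70, the called gene, was at 107, 507 and 194 CPM against 48.5 and 102 CPM, and without total replicate 2 its log2 fold change was -1.01, its call was lost and the list median was -0.10. The HSP70 call was also lost without cytoplasm replicate 1 or total replicate 3. Cold response genes were higher in 5 of 9 and lower in none (median 0.83). ERD10, a dehydrin, rose from 1854, 1683 and 1499 CPM to 5296 and 7341 CPM (1.91 ± 0.21, adjusted p = 0.000376), and COR15A from 269, 339 and 271 CPM to 445 and 624 CPM. With all 14 libraries in 1 fit, 3 of the 5 calls were lost, those of COR15A, COR15B and LTI78 (adjusted p = 0.0859, 0.0835 and 0.248 by edgeR's quasi-likelihood test). COR15B also lost its call without total replicate 1 or 3, and LTI78 without total replicate 2 or 3.

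Touch, wounding and jasmonate genes gave 2 higher and 2 lower of 22 (median -0.24). The calcium sensor genes TCH2 and TCH3 rose by 0.79 and 0.78, but both calls were lost without total replicate 1 (adjusted p = 0.0507 and 0.0562 by edgeR's quasi-likelihood test). The TCH3 call was also lost with all 14 libraries in 1 fit (adjusted p = 0.0906 by the same test). LOX3, a lipoxygenase of jasmonate synthesis, fell by 1.41 ± 0.27. The clock list held 4 higher and 4 lower of 14 (median -0.19). The evening genes GI and ELF3 fell, from 52.6, 42.3 and 45.5 CPM to 8.15 and 15.4 CPM and from 63.5, 58.5 and 63.0 CPM to 19.9 and 10.3 CPM. The morning gene LHY rose from 5.19, 9.49 and 1.77 CPM to 41.7 and 22.8 CPM. Over the 8 clock genes tested without shared reads the median was 0.31.

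Floral regulators showed no common direction, with 4 higher and 4 lower of 16 (median 0.09). Without cytoplasm replicate 2 the median was -0.46. PI, a petal and stamen identity gene, rose from 162, 189.6 and 188 CPM to 315 and 397 CPM (0.99 ± 0.16), and AP1, a sepal and petal identity gene, from 79.4, 75.7 and 71.6 CPM to 106 and 174 CPM. CRC, a carpel gene, fell from 29.4, 24.3 and 27.5 CPM to 4.08 and 5.71 CPM (-2.44 ± 0.29), AP2 from 48.1, 45.9 and 60.1 CPM to 23.1 and 21.1 CPM, and the meristem regulator LFY by 1.51 ± 0.35. CRC overlaps AT1G69170 on the opposite strand.

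**Figure D3:**
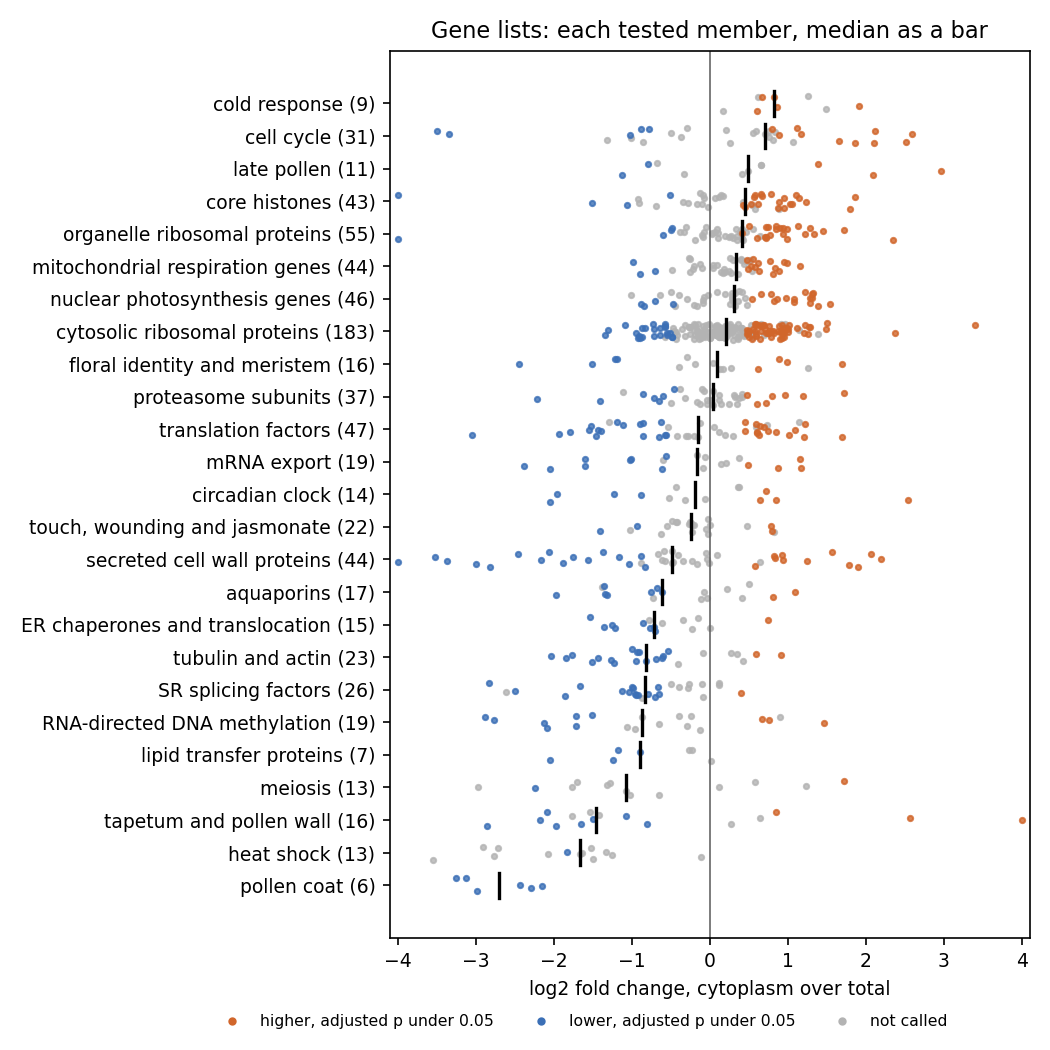
Log2 fold change of each tested member of 25 gene lists, cytoplasm over total, with the number tested in brackets, the median as a black bar and colours for the call, and with 4 members beyond 4 drawn at the edge. The pollen coat list lies wholly below 0 with a median of -2.71, and the cold response list has the highest median of those drawn, 0.83.

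Markers of floral organs were read in every library, and those of seed were near 0. All 5 floral markers were read in every library, with a summed level of 653 to 738 CPM in total RNA and 942 and 1198 CPM in the cytoplasm, and 3 of 5 were higher. None of the 6 seed storage genes passed the filter, with at most 10 reads over a group. Of 5 root markers, EXPA7 had 0 reads, PRP3 1 read and COBL9 14 reads in total RNA and 10 in the cytoplasm, and SHR and SCR, also active in other meristems, were lower. The vascular markers summed to 74.4 to 79.4 CPM in total RNA and 39.4 and 39.6 CPM in the cytoplasm, with 2 of 5 lower. The mesophyll markers summed to 7565 to 8449 CPM against 6108 and 6052 CPM, with 2 of 5 lower. All 5 belong to the nuclear photosynthesis list, which went the other way, with 16 higher and 4 lower of 46 (median 0.31). Most of their sum was RBCS1A, so it does not stand for mesophyll transcripts as a set.

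Transcript length and composition went with the difference. The median log2 fold change was -0.02 for 220 protein-coding genes with transcripts of up to 500 nt, 0.32 for 2820 with transcripts of 501 to 1000 nt, 0.05 for 4876 of 1501 to 2000 nt, -0.26 for 4730 of 2001 to 3000 nt and -1.26 for 712 of over 4000 nt. In the longest group 66.99% of genes were lower and 1.97% higher. In the nuclear libraries against the same total libraries, the medians of the length groups lay between -0.05 and 0.23. Across 14304 genes of at least 8 CPM, which are not independent replicates, Spearman's rho between length and log2 fold change was -0.341. The difference between the 2 cytoplasm replicates also went with length, at a rho of -0.175.

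The median also fell with the share of G and C in the transcript, from 0.43 for 494 genes of up to 36% to -0.73 for 625 genes of over 46%. Within the 5 length groups drawn on the right of the plot by length and protein class, it was -0.12 to 0.43 at 36 to 38% and -1.32 to -0.30 at over 46%, lower at over 46% in each. By exon number, which goes with length, it was 0.17 for genes of 1 exon and -0.76 for genes of over 16 exons.

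**Figure D4:**
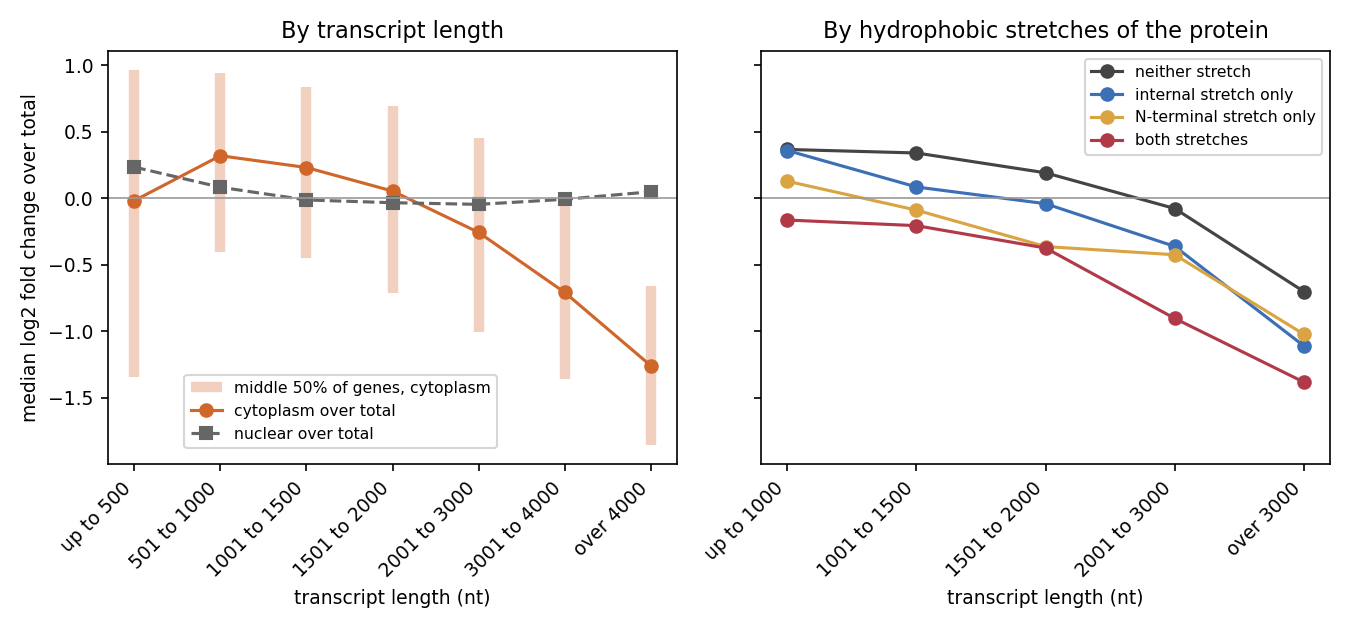
Median log2 fold change, cytoplasm over total, of protein-coding genes by transcript length (left) and by hydrophobic stretches of the protein within groups of length (right). The medians fall from 0.32 at 501 to 1000 nt to -1.26 at over 4000 nt, and within each length group proteins with both kinds of stretch lie lowest.

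Genes for proteins with hydrophobic stretches had lower medians. Proteins were classed by an 11-residue window within the first 40 residues with a mean Kyte-Doolittle hydropathy of at least 2, as in signal peptides, and by a 19-residue window further on with a mean of at least 1.6, as in membrane spans. The median was 0.14 for 12153 genes with neither, -0.23 for 2230 with the first only, -0.27 for 3810 with the second only and -0.62 for 1563 with both. Of the genes with neither, 24.1% were higher and 17.42% lower, against 8.96% and 35.4% of those with both. Among transcripts of up to 1000 nt the medians were 0.37 with neither and -0.16 with both, among those of over 3000 nt -0.70 and -1.38, and in the 3 length groups between them genes with both also had the lower median.

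By the first location term of the annotation, the lowest medians were those of 217 genes integral to membrane (-0.66), 126 of the cell wall (-0.47) and 395 of membranes (-0.46). Genes of the ribosome stood at 0.27 and of the thylakoid membrane at 0.44. Genes of the cytosol had a median of -0.20, those of the nucleus 0.02. With length subtracted in the same way, the ribosome stood at 0.05, the thylakoid membrane at 0.30, the cytosol at 0.008 and the nucleus at 0.10. Part of the contrast among locations thus went with transcript length.

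Non-coding transcripts moved both ways. AT2G15128, an ncRNA gene on the plus strand of chromosome 2 (6564104 to 6564316), rose from 5.31, 1.58 and 3.32 CPM to 402 and 228 CPM, a log2 fold change of 6.53. In the nuclear libraries its log2 fold change over total RNA was 0.55. Its counts were whole and its sequence stands at no other place in the reference. It is printed (RefSeq, TAIR10.1) because its gain comes from reads that no other locus shares.
AT2G15128: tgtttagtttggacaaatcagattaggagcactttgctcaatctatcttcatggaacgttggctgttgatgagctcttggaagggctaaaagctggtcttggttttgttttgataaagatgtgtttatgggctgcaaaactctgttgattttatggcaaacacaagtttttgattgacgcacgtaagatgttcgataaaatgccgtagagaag
The pseudogene AT4G06477 rose from 0.845, 0.565 and 0.664 CPM to 144 and 148 CPM. The pseudogene AT4G16870 fell from 55.9, 51.9 and 41.3 CPM to 0.906 and 3.57 CPM, and AT3G43690 from 69.1, 63.0 and 64.7 CPM to 3.62 and 4.997 CPM. The rule took non-coding genes whose groups did not overlap, and AT4G06477, with 18 reads over the 3 total libraries, passed the filter through the cytoplasm.

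Of 328 genes annotated as lncRNA, 87 were lower (26.5%) and 40 higher (12.2%), with a median of -0.64. Over all genes tested 21.8% were lower and 20.8% higher. The other annotated ncRNA genes had 17 lower and 20 higher of 97 (median 0.10). The lowest lncRNA genes named, AT1G60505, AT2G42835 and AT1G71528, each overlap a gene on the opposite strand. Pseudogenes split by class. Of 205 annotated as pseudogene 94 were higher and 38 lower (median 0.82), and of 127 annotated as transcribed pseudogene 16 were higher and 32 lower (median -0.50). Shared reads entered 114 of the 205 and 64 of the 127. The 91 and 63 with whole counts had medians of 0.21 and -0.18, with 36 and 9 higher. In aly1-2 the medians of the 2 classes were 0.15 and -0.66. Over both classes 17 had 0 reads in all total libraries and passed the filter through the cytoplasm alone, and the joint median of 0.19 was -0.39 with scaling on all genes. Of 64 small nucleolar RNAs 6 were higher (9.38%) and 10 lower (15.6%), both below the shares over all genes. Of 15 small nuclear RNAs 9 were higher and none lower, but 13 of the 15 had shared reads. U1.5, a small nuclear RNA of the spliceosome, rose from 3.98, 6.103 and 6.64 CPM to 36.2 and 44.97 CPM.

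Transfer RNAs were read mainly in the cytoplasm. Of 625 tRNA genes 26 passed the filter, and 19 of these had 0 reads in all total libraries, so they passed through the cytoplasm alone and their calls are no support. Over all 625 genes, with no filter and no TMM factor, reads came to 15.02, 13.3 and 19.6 CPM in total RNA and 167 and 222 CPM in the cytoplasm. Both genes below encode tRNA-Met of 72 nt and have the same sequence, which stands at 6 places in the reference. They are printed to show that their reads cannot be assigned to 1 locus.
AT2G23650: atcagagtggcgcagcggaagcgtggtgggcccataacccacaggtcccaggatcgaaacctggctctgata
AT1G69000: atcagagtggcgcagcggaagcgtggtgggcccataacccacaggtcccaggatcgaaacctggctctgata
AT2G23650 was at 0, 0.113 and 0 CPM in total RNA and at 11.8 and 16.8 CPM in the cytoplasm. AT1G69000 was at 0, 0 and 0.111 CPM against 9.97 and 9.99 CPM.

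The same contrast was made in aly1-2 buds, from other libraries. ALY1 reads were fewer in the mutant, with 15.69, 23.0 and 19.8 CPM (here without TMM factors) in its total libraries against 122, 126 and 138 CPM in the wild type. Its cytoplasm libraries held 37.96 and 29.5, against 108 and 103. Nuclear rRNA genes took 3.64% to 6.92% of counts in aly1-2 total RNA and 52.3% and 52.4% in its cytoplasm.

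In aly1-2, 3316 of 20979 genes were higher in the cytoplasm (15.8%) and 3635 lower (17.3%). Of 4145 genes higher in the wild type and tested in aly1-2, 94.5% had a positive log2 fold change there and 57.0% were called higher. Of 4516 genes lower in the wild type, 4.67% had a positive value and 57.9% were called lower. Across 14656 genes of at least 8 CPM, which are not independent replicates, Pearson's r between the log2 fold changes was 0.847 and Spearman's rho 0.841. The pollen coat list had a median of -2.14 in aly1-2 and the plastid genes one of 1.84. The late pollen list, at 0.48 in the wild type, stood at -0.88.

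The difference between the genotypes was tested as an interaction. No gene of 21894 passed an adjusted p of 0.05 (0%) by edgeR's quasi-likelihood test, while 2410 had an unadjusted p under 0.05 (11%) and DESeq2 called 217. A count of 0 does not show that the genotypes are alike.

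**Figure D5:**
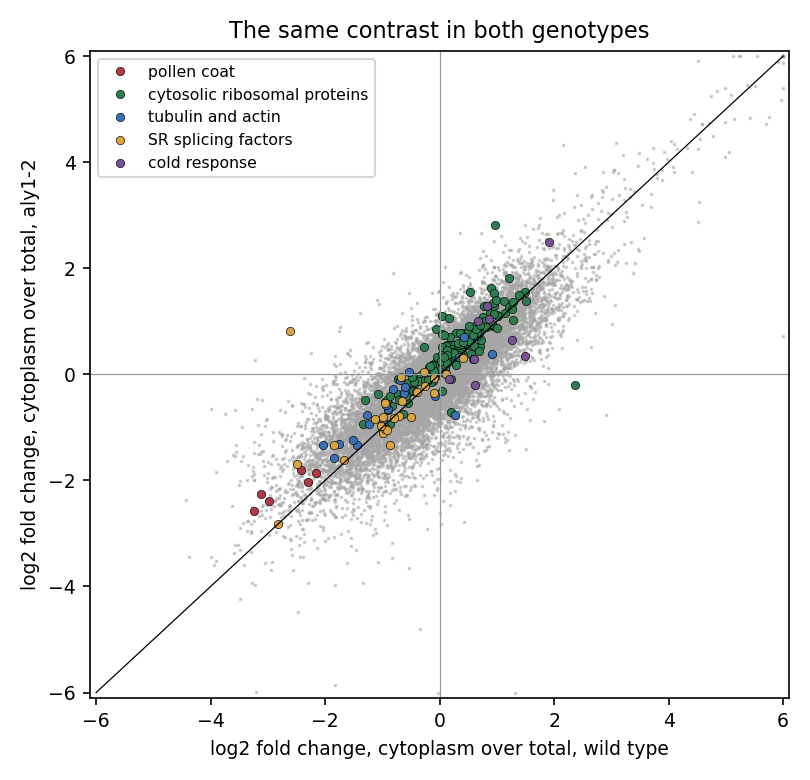
Log2 fold change, cytoplasm over total, of each gene of at least 8 CPM in the wild type (horizontal) and in aly1-2 (vertical), with 18 genes beyond 6 drawn at the edge. Most genes lie near the diagonal, with a Pearson's r of 0.847 over 14656 genes.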

How the data were processed

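Poly(A)+ RNA libraries of wild-type and aly1-2 buds were compared by their labels. The values are expected counts per gene, deposited by the authors and not all whole (86.4% to 92.7% of values were). Per the submitters' processing notes, STAR 2.5.1b, featureCounts of Subread 1.6.1 and TAIR10 were used. A stray line naming no gene was left out of each file.

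Counts were rounded to whole numbers. Library sizes and TMM factors came from nuclear genes without the 4 rRNA genes. The files hold 37336 genes, of which 37051 matched TAIR10.1. Genes passing filterByExpr (minimum count 10, minimum total 15) were tested with the quasi-likelihood test of edgeR 4.0.16 (R 4.3.3), with p-values adjusted by Benjamini-Hochberg over all of them, and 0.05 as threshold. DESeq2 1.42.0 was an alternative. The procedure was tested on simulated data. Replicates differed by more than sampling noise, with a chi-square per degree of freedom of 5.40 or more, so none was counted as a repeat.

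Members and lists were chosen with earlier results of these data known, and 27 list names matched no single gene. Named genes were the 10 highest and 10 lowest protein-coding genes of at least 32 CPM, 5 and 5 non-coding genes of at least 8 CPM, both called and without overlap, up to 4 genes per list with the smallest adjusted p, the rRNA genes and ALY1. Any other gene named was picked once its values were known. Alternatives were other scalings, filters and tools, thinned total libraries, genes without shared reads, a replicate block and each library left out.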

Additional observations from a re-analysis of the deposited data

How the results depend on the processing

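The wild-type count of 8875 called genes was 4718 (2295 higher, 2423 lower) with genes that had shared reads left out, where 12392 genes were tested. With the replicate number as a block it was 6393, with 2844 higher and 3549 lower. The numbers pair only 2 libraries of each group, whose deviations correlated at 0.137 and 0.0307, so the block is no known pairing. Leaving out single libraries gave 5386 to 11332 called genes, 2565 to 5357 higher and 2821 to 5975 lower, the highest counts without a cytoplasm library, where the lone sample is assumed to vary like the total libraries. In aly1-2 the counts were 3217 (1531 higher, 1686 lower) without shared reads, and 2809 to 8730, 1384 to 4060 and 1425 to 4670 with libraries left out. The interaction gave 217 genes by DESeq2, 1 with all 14 libraries in 1 fit, 37 without a filter, 19 with the block and 0 to 6 with libraries left out.

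The gap between the median of the longest transcripts and that of the third length group from the shortest, -1.49, was -1.55 in genes of at least 8 CPM. The gap between the highest GC group and that of 36 to 38%, -1.07, was -1.27 there and -1.14 with scaling on all genes, and the gap between proteins with both stretches and with neither, -0.76, was -0.71 there. The share differences in percentage points were 43.8 to 54.9 for rRNA, 8.75 to 9.50 for plastid and 0.0078 to 0.156 for mitochondrial genes with libraries left out. List medians changed sign for floral identity without cytoplasm replicate 2 (-0.4598, and up to 0.103 with other libraries left out), small nuclear and nucleolar RNA without total replicate 3 (0.327, and down to -0.291), mesophyll markers without total replicate 2 (0.0374, and down to -0.513), and pseudogenes with scaling on all genes (-0.39), thinned libraries (-0.12) and either cytoplasm library left out (-0.2708 and -0.2629, and up to 0.2 without total replicate 1). Without shared reads they did so for the clock (0.31, 8 genes), aquaporins (0.365, 3 genes) and tubulin and actin (0.0416, 6 genes). The same held for translation factors (0.345, 20 genes) and mature pollen markers (0.60, 1 gene). These medians are over smaller sets of genes than the full lists. The cause of these changes was not tested. No named gene called in the wild-type comparison reversed its sign where it was tested. A change of sign was not counted for named genes that were not called, such as ALY1. The lower messenger RNA depth of the cytoplasm libraries limits genes of low level.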
